A study of Mus musculus with 6 samples.

Results

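The genes described here encode the HSP90 chaperones, their cochaperones, the cytosolic J proteins and a few relatives, the BAG proteins, the mitochondrial chaperonin, the cytosolic chaperonin CCT and the heat shock factors HSF1 and HSF2. They were chosen by name, 36 genes in all, and all 36 were found among the 36706 genes of the deposited tables. Messenger RNA came from wild-type mouse bone marrow cells grown with 20 ng/mL of the cytokine GM-CSF. All 6 libraries were from cells given interferon gamma (IFN-γ). In 3 of them the cells were treated with 4-octyl itaconate (4-OI) as well, an ester form of the metabolite itaconate that enters cells, so every comparison below is IFN-γ with 4-OI against IFN-γ alone, and no library without IFN-γ was analysed here. The labels give no dose or duration, do not say whether replicates came from separate animals or cultures, and name the cells as dendritic cells in one field and as BMDMs in the titles. The p-values therefore measure the spread between these libraries, which may be technical.

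Molecular chaperones bind unfolded or incomplete proteins and release them in cycles driven by ATP. HSP70 takes up a client handed over by a J protein, BAG proteins help HSP70 let it go, and the adaptor HOP (Stip1) passes many clients on to HSP90, whose cycle is set by further cochaperones. The chaperonins are barrel-shaped machines: CCT folds actin and tubulin in the cytosol, and HSP60 with its lid HSP10 folds proteins in mitochondria. HSF1 is the transcription factor that switches on many of these genes when unfolded proteins accumulate, and it is controlled mainly at the level of the protein. In antigen-presenting cells HSP90 and its partners serve kinases and receptors of innate signalling.

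The libraries held 19656368 to 29244717 counts, and every member was well covered, with at least 136 counts in each library. IFN-γ replicate 1 lay apart from the other IFN-γ libraries on the second principal component (32.0 against -19.1 and -16.8), and the 4-OI libraries were spread on the same axis from -14.4 to 12.4. IFN-γ replicate 1 also held more stromal marker RNA. Col1a1 had 254 counts in it against 7 and 5 in the other IFN-γ libraries, and Col1a2 265 against 16 and 8. Fn1, listed here with the monocyte markers, had 26796 counts in it against 15942 and 13463. The monocyte marker Ly6c2 was not raised in the same way (24233 counts against 38518 and 22325). Of the listed dendritic cell markers Itgax, Cd74 and H2-Ab1 were abundant, while Cd209a had at most 3 counts in each library. Dendritic cell markers were lower with 4-OI in 5 of 8 tested cases and none was higher. Monocyte markers were lower in 3 of 4 tested cases, and mast cell and basophil markers in 4 of 4. Neutrophil markers were lower in 3 of 5 and higher in 2, and macrophage markers lower in 2 of 7 and higher in 1. Of all tested genes 25.4% were lower and 22.7% higher. Summed monocyte markers were 1651 to 2161 CPM (counts relative to library size, scaled with edgeR's TMM factors) with IFN-γ and 848 to 955 with 4-OI, mast cell and basophil markers 111 to 115 and 39.9 to 45.8, macrophage markers 1452 to 1481 and 1916 to 1942, and neutrophil markers 945 to 1449.5 and 1338 to 1952. In the monocyte sum Fn1 made up 1060 CPM in IFN-γ replicate 1, against 541 and 572 CPM in the other IFN-γ libraries. The part of these marker shifts in the results below was not tested. In such bulk samples fewer cells of a type and less RNA per cell cannot be told apart.

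The chaperone genes were higher with 4-OI or did not pass the test, and none passed as lower. Of the 36, 20 passed as higher, or 55.6% of them, while 48.1% of the 14011 genes tested passed in either direction, 22.7% as higher and 25.4% as lower (edgeR quasi-likelihood test, Benjamini-Hochberg adjusted p under 0.05 over all tested genes). A rise of at least 1.5-fold was called for 14 members, or 38.9%, against 13.0% of all tested genes. The median log2 fold change (called log2 change from here on) was 0.34 over the members and -0.01 over all tested genes. Both groups of libraries were fully separate in scaled CPM for 25 members, 24 of them with 4-OI on the higher side; separation occurred in 59.5% of all tested genes and in 28.9% towards higher and 30.6% towards lower values. Dnajb6 was the member separate on the lower side, and Dnaja3, Dnajb6, Dnajc7, Bag5 and Cct7 were separate without passing. Together the 36 genes made up 0.440% to 0.475% of the counts in the IFN-γ libraries and 0.590% to 0.607% in the 4-OI libraries, ranges that did not overlap. Much of this was from Hsp90aa1 and Hsp90ab1, which alone made up 0.137% to 0.143% and 0.240% to 0.254%. The rise fell unevenly over the classes, being largest for cytosolic HSP90, Ahsa1, Ptges3 and Bag3 and small for CCT. The 14 members with at least 1.5-fold rises passed under all 15 alternative settings, whereas the other 6 (Stip1, Fkbp4, Cct4, Cct8, Hsf1 and Hsf2) no longer passed when libraries were scaled by total counts alone. That scaling lowers the median of all tested genes to -0.27 and the share of higher genes among all calls from 47.2% to 24.0%, and it shifts the members by about the same amount, to a median of 0.08. With IFN-γ replicate 1 and 4-OI replicate 3 both left out, the members' median was 0.21 and that of all tested genes 0.01. The distance was 0.20 against 0.35 with all libraries. Most members had their lowest IFN-γ value in the former library and most their highest 4-OI value in the latter, so leaving both out tends to shrink it. In this fit 23 members passed as higher, and so did 4601 of 14086 tested genes, against 3181 of 14011 with all libraries.

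**Figure D1:**
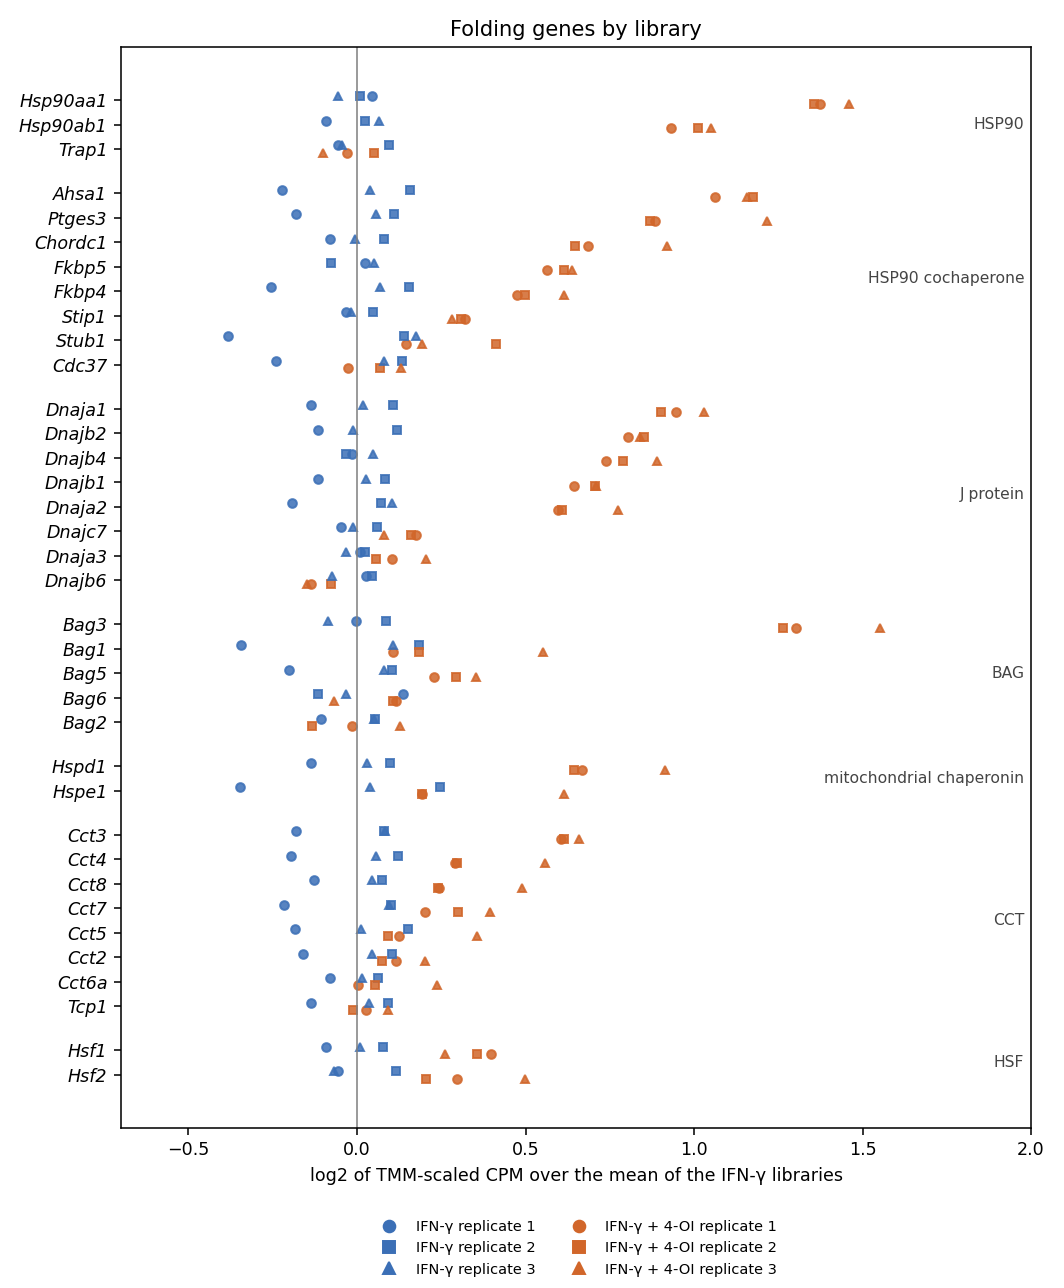
Each row is a gene and each symbol a library, drawn as the log2 of its TMM-scaled CPM over the mean of the 3 IFN-γ libraries; blue marks IFN-γ, orange IFN-γ with 4-OI, and the shape gives the replicate number. The orange symbols of Hsp90aa1, Bag3 and Ahsa1 lie farthest to the right on average, and those of Trap1, Cdc37, Bag2 and Tcp1 overlap with the blue ones.

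HSF1 binds arrays of the unit GAA and its reverse complement TTC, and promoters were searched for these letters. RefSeq sequences on GRCm38.p6, from 250 bases before to 50 bases after each start, were found for 32 of the 36 genes (not for Hsp90aa1, Hsp90ab1, Cct4 and Hsf1). A run of 3 units, that is GAANNTTC followed after 2 bases by GAA, or TTCNNGAA followed after 2 bases by TTC, stood in the promoters of 4 members (12.5%) and of 0.662% of 27025 genes. The runs are each other's reverse complement. Coordinates in this paragraph are GRCm38.p6 and are not those of the deposited tables. The stretches here are shown because they hold such runs or, for Dnajb4, Dnaja1 and Fkbp4, because a gene that rose has a pair of units before its start; capitals mark the units and the bases between them, and each reads 5′ to 3′ on the strand of its gene.
Hspd1 (chr1:55088039-55088096, minus strand): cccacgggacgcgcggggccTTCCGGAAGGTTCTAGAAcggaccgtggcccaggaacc
Hspe1 (chr1:55088039-55088096, plus strand): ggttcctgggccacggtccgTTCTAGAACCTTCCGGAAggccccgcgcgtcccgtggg
Chordc1 (chr9:18292263-18292285, plus strand): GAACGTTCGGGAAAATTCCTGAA
Dnajb6 (chr5:29735832-29735884, plus strand): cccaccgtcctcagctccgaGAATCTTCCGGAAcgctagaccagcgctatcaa
Dnajb4 (chr3:152193846-152193879, minus strand): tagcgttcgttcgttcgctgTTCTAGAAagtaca
Dnaja1 (chr4:40722324-40722371, plus strand): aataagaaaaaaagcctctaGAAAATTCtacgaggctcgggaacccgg
Fkbp4 (chr6:128438780-128438827, minus strand): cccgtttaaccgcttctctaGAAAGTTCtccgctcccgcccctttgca

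The Hspd1 and Hspe1 stretches are the same DNA read on opposite strands, an 18-base run. It ends 127 bases before the start of Hspd1, which rose, and 72 bases before that of Hspe1, which did not pass. The Chordc1 run is 23 bases long and lies across its start. Dnajb6 has a run of 3 units ending 34 bases before a start, and it did not pass. A pair of units, GAANNTTC or TTCNNGAA, both of which read the same on either strand and lie within the longer runs too, stood in the promoters of 13 of the 32 members (40.6%) and of 17.0% of all genes. It was in 6 of the 16 members that rose and 7 of the 16 that did not pass. Cdc37, Cct2, Cct5 and Stub1, which did not pass, also have a pair before their start, and their stretches are not shown. The core of the antioxidant response element bound by NRF2, TGACNNNGC on either strand, stood in 8 of 32 members (25.0%), 4 of them among those that rose, and in 14.0% of all genes. A match is a description of letters and not of binding.

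Cytosolic HSP90 is made from a pair of genes, Hsp90aa1, the stress-inducible form (chromosome 12, 110657470 to 110662829, minus strand, coordinates as deposited), and Hsp90ab1, the constitutive form (chromosome 17, 45878704 to 45884187, minus strand). Hsp90aa1 stood at 209.5, 204 and 195 CPM in the IFN-γ libraries and at 526, 519 and 558 CPM with 4-OI. Every 4-OI library was above every IFN-γ library, and the rise was 2.63-fold (log2 change 1.40 ± 0.08, SE; edgeR adjusted p = 8.52e-06). Hsp90ab1 was at 1011, 1094 and 1126 CPM with IFN-γ and at 2055, 2170.2 and 2232 CPM with 4-OI. Its groups were also separate, with a log2 change of 1.00 ± 0.10 (SE; edgeR adjusted p = 9.47e-05). Per transcript length, Hsp90ab1 was the most abundant of the 36 genes in both groups, at 990.0 ± 65.5 TPM (the deposited length-corrected level; SD, n = 3) with IFN-γ and 1517 ± 100.1 TPM with 4-OI. Hsp90aa1 moved from the eighth to the second place, from 165 ± 23.9 to 331 ± 17.7 TPM. TPM are scaled to a fixed sum without the TMM factors, so changes between the groups are to be read from the CPM. The ratio of Hsp90aa1 to Hsp90ab1 in TPM was 0.182, 0.164 and 0.152 in the IFN-γ libraries and 0.225, 0.210 and 0.220 in those with 4-OI. These ratios did not overlap, and their two-sided exact permutation p was 0.10, the smallest that 3 libraries against 3 can give (0.125 adjusted over the 10 ratios computed). The ratio does not depend on how libraries are scaled, but the 2 genes are alike in sequence, and how reads they may share were counted is not given in the sources used here. Together they made up 0.137% to 0.143% of the counts in the IFN-γ libraries and 0.240% to 0.254% in the 4-OI libraries. Trap1, which encodes the HSP90 of mitochondria, did not pass: it was at 40.3, 44.8 and 40.7 CPM with IFN-γ and 41.1, 43.4 and 39.1 CPM with 4-OI. Its log2 change was -0.03, with a 95% interval from -0.23 to 0.17 (edgeR adjusted p = 0.832); with libraries scaled by total counts it was -0.28 (edgeR adjusted p = 0.0494).

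**Figure D2:**
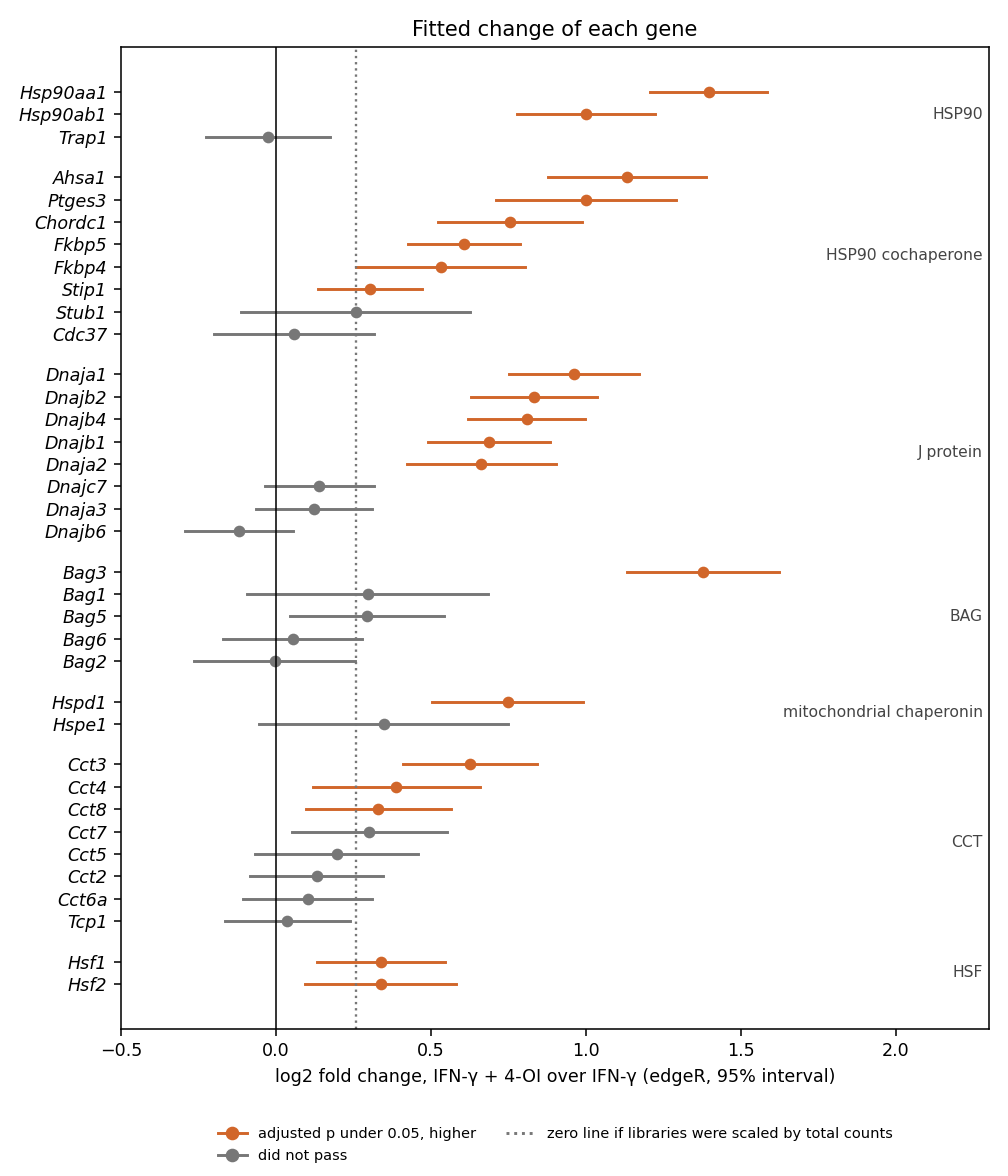
Points are log2 changes of IFN-γ with 4-OI over IFN-γ from the edgeR fit and bars their 95% intervals; orange marks genes that passed as higher, grey those that did not pass, and the dotted line shows where 0 would lie if libraries were scaled by total counts. Hsp90aa1 and Bag3 are farthest from 0, and the CCT genes spread from Tcp1 at 0.04 to Cct3 at 0.63.

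Among the 8 HSP90 cochaperones 6 rose, with a median log2 change of 0.57. Ahsa1 encodes AHA1, which speeds up the ATPase of HSP90. It went from 35.3, 46.0 and 42.4 CPM to 86.0, 93.2 and 91.9 CPM, a 2.19-fold rise without overlap (edgeR adjusted p = 0.000108), although 14.8% of its exon bases are shared with Vipas39 on the opposite strand. Ptges3 encodes p23, which holds HSP90 in its closed, ATP-bound form. Its values were 79.8, 97.7 and 94.2 CPM with IFN-γ and 167, 165 and 211 CPM with 4-OI. The third 4-OI library was the highest, all 3 were above the IFN-γ libraries, and the log2 change was 1.00 ± 0.13 (SE; edgeR adjusted p = 0.000387).

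Chordc1, which encodes a CHORD-domain partner of HSP90, was at 44.3, 49.5 and 46.7 CPM with IFN-γ and 75.3, 73.4 and 88.6 CPM with 4-OI, a 1.69-fold rise (edgeR adjusted p = 0.000524). Fkbp5 and Fkbp4 encode the immunophilins FKBP51 and FKBP52, which sit with HSP90 on steroid hormone receptors. Fkbp5 went from 63.6, 59.2 and 64.8 CPM to 92.5, 95.7 and 97.3 CPM, again without overlap (1.52-fold; edgeR adjusted p = 0.000441). Fkbp4 and Stip1, the gene of HOP, also rose, with log2 changes of 0.53 and 0.30 (edgeR adjusted p = 0.00709 and 0.00988), and neither passed with total-count scaling (0.27 and 0.05). Cdc37 and Stub1 did not pass. Cdc37, which loads protein kinases onto HSP90, had a log2 change of 0.06 with a 95% interval from -0.20 to 0.32 (-0.20 with total-count scaling), and Stub1, the gene of the ubiquitin ligase CHIP, had one of 0.26 from -0.11 to 0.63. Stub1 shares 61.3% of its exon bases with Jmjd8 on the opposite strand, so its counts may hold reads of that gene.

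Of the 8 J protein genes 5 rose by 1.58-fold to 1.95-fold and 3 did not pass, with a median of 0.67. Dnaja1, of the class built like bacterial DnaJ, went from 68.4, 81.0 and 76.1 CPM to 145, 140.4 and 153 CPM (log2 change 0.96 ± 0.09, SE; edgeR adjusted p = 8.52e-05). Its relative Dnaja2 was more abundant, at 107 ± 2.98 TPM against 47.9 ± 1.69 TPM with IFN-γ, and went from 119, 143 and 147 CPM to 206, 208 and 233 CPM (log2 change 0.66 ± 0.10; edgeR adjusted p = 0.00125). In both genes every 4-OI library was above every IFN-γ library.

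Dnajb1, the classical heat-inducible HSP40, went from 29.9, 34.3 and 33.0 CPM to 50.6, 52.8 and 53.0 CPM (1.61-fold; edgeR adjusted p = 0.000367). Dnajb2, whose product also binds ubiquitin, was at 32.3, 37.9 and 34.6 CPM with IFN-γ and 61.0, 63.0 and 62.6 CPM with 4-OI (1.78-fold; edgeR adjusted p = 0.000155). Dnajb4, a close relative of Dnajb1, went from 28.4, 28.0 and 29.7 CPM to 47.9, 49.6 and 53.3 CPM (1.75-fold; edgeR adjusted p = 0.000128). These 3 genes of the B class had separate groups and tight replicates. The members that did not pass were Dnajb6, which guards against protein aggregation, Dnajc7, which binds both HSP70 and HSP90, and Dnaja3, which works in mitochondria. Their log2 changes were -0.12 (95% interval -0.29 to 0.05), 0.14 (-0.04 to 0.31) and 0.12 (-0.06 to 0.31). Dnajb6 passed as lower with total-count scaling (-0.38; edgeR adjusted p = 0.00820), and under that scaling Dnaja3 and Dnajc7 had negative values of -0.14 and -0.12.

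A single gene of the BAG family rose. Bag3, whose product links HSP70 and small heat shock proteins to autophagy, was at 18.7, 19.9 and 17.7 CPM with IFN-γ and 46.2, 45.1 and 55.0 CPM with 4-OI. The groups were far apart, and the rise of 2.60-fold was close to that of Hsp90aa1 (log2 change 1.38 ± 0.11, SE; edgeR adjusted p = 3.11e-05). Bag1, a nucleotide exchange factor of HSP70, overlapped between groups: 52.9, 76.4 and 72.4 CPM with IFN-γ against 72.5, 76.4 and 98.7 CPM with 4-OI. Its lowest value was in IFN-γ replicate 1 and its highest in 4-OI replicate 3, and it did not pass (edgeR adjusted p = 0.185). Bag5 had groups that did not overlap and a log2 change of 0.29, with a 95% interval from 0.04 to 0.54 (edgeR adjusted p = 0.0543). Bag6, which escorts tail-anchored membrane proteins, and Bag2, which restrains CHIP, had log2 changes of 0.05 and -0.0046 with intervals from -0.17 to 0.28 and from -0.27 to 0.26; with total-count scaling Bag6 was at -0.20 and Bag2 at -0.27 (edgeR adjusted p = 0.0619 for Bag2).

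The mitochondrial chaperonin consists of HSP60, from Hspd1, and HSP10, from Hspe1. The 2 genes lie head to head on chromosome 1, at 55116992 to 55127402 on the minus strand and 55127307 to 55130476 on the plus strand in the deposited tables, so that they overlap, by 12.5% of the exon bases of Hspe1. The run of heat shock units shown above lies before the RefSeq start of each. Hspd1 was at 104, 122 and 116 CPM with IFN-γ and 181, 178 and 215 CPM with 4-OI, a 1.68-fold rise without overlap (edgeR adjusted p = 0.000718). Hspe1 was at 79.3, 119.8 and 104 CPM with IFN-γ and 115, 115 and 155 CPM with 4-OI. Its libraries overlapped, and its log2 change of 0.35 had a 95% interval from -0.06 to 0.75 (edgeR adjusted p = 0.137). Without single libraries its log2 change ranged from 0.19 (without IFN-γ replicate 1) to 0.50 (without IFN-γ replicate 2), being 0.20 without 4-OI replicate 3. It was 0.04 when the libraries IFN-γ replicate 1 and 4-OI replicate 3 were both dropped. These held the lowest IFN-γ and the highest 4-OI value of Hspe1, so dropping them lowers its change by construction. The ratio of Hspe1 to Hspd1 in TPM was 2.58, 3.31 and 3.00 in the IFN-γ libraries and 2.14, 2.18 and 2.43 in those with 4-OI. Every 4-OI library was below every IFN-γ library (two-sided exact permutation p = 0.10, the smallest possible). The mean ratio with 4-OI was 0.760 of that with IFN-γ, and 0.713 to 0.807 of it without single libraries.

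CCT is a double ring in which each of 8 related subunits has its own place. Of the 8 subunit genes 3 rose, Cct3, Cct4 and Cct8, and the median log2 change was 0.25. Cct3 went from 139, 167 and 167 CPM to 239.8, 241 and 249 CPM, a 1.54-fold rise with separate groups (edgeR adjusted p = 0.000955). Cct4 was at 184, 228 and 218 CPM with IFN-γ and 257, 258 and 309 CPM with 4-OI (log2 change 0.39; edgeR adjusted p = 0.0260). Cct8 had a log2 change of 0.33 (edgeR adjusted p = 0.0278). Neither Cct4 nor Cct8 passed without IFN-γ replicate 3 (edgeR adjusted p = 0.0547 and 0.0585) or without 4-OI replicate 3 (0.0840 and 0.0791), so that Cct3 alone passed in those fits. Cct7 stood at the threshold, with a log2 change of 0.30 (edgeR adjusted p = 0.0509), and passed under 6 of the 15 alternatives. Tcp1, Cct6a, Cct2 and Cct5 had log2 changes of 0.04 to 0.19 with intervals that include 0, and all 4 were negative with total-count scaling (-0.07 to -0.22). Tcp1 then passed as lower (edgeR adjusted p = 0.0465). Tcp1 shares 32.3% of its exon bases with Acat3 and Mrpl18 on the opposite strand.

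All 8 CCT genes had their lowest IFN-γ value in replicate 1 and their highest 4-OI value in replicate 3; over all members this held for 28 and 27 genes of 36, and over all tested genes for 44.0% and 42.1%. Without both of these libraries the CCT median fell to 0.09, with 4 of 8 passing as higher (4601 of 14086 tested genes did so in that fit). Dropping the lowest IFN-γ and the highest 4-OI value lowers the CCT changes by construction, so this fit cannot test them. In the same fit the log2 change was 1.39 for Hsp90aa1, 0.93 for Hsp90ab1 and 1.27 for Bag3. Hsp90aa1 and Bag3 did not have their lowest IFN-γ value in replicate 1, so their values are not a like comparison for CCT. The cause was not tested.

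Within a library the subunit transcripts can be set against each other whatever the scaling. Divided by the mean TPM of the 8 genes, Cct3 was 1.07, 1.07 and 1.11 in the IFN-γ libraries and 1.41, 1.42 and 1.30 in those with 4-OI. The 8 shares have a fixed sum, so a larger share of some subunits lowers those of the others. Tcp1 stood lower on this measure, from 1.05, 1.02 and 1.02 to 0.898, 0.873 and 0.834, and Cct2 from 1.23, 1.23 and 1.22 to 1.14, 1.10 and 1.07. Groups were separate for 6 of the 8 subunits: Cct3 and Cct4 had larger shares with 4-OI, and Tcp1, Cct2, Cct5 and Cct6a smaller ones (two-sided exact permutation p = 0.10 each, the smallest possible). None of the latter 4 passed as lower in the edgeR fit of their own levels with TMM scaling. Cct7 and Cct8 overlapped. The most abundant subunit transcript exceeded the least abundant 2.04-fold with IFN-γ and 2.48-fold with 4-OI, in mean TPM.

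**Figure D3:**
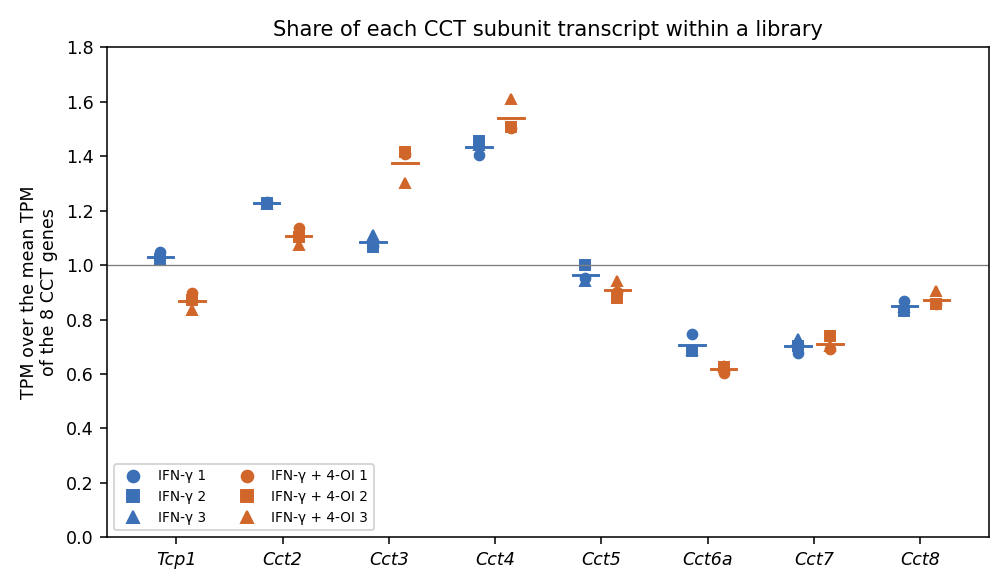
For each CCT subunit gene the symbols give its TPM in a library divided by the mean TPM of the 8 CCT genes in that library, blue for IFN-γ and orange for IFN-γ with 4-OI, with the group mean as a bar. Cct3 moved from a mean of 1.08 to 1.38, and Tcp1 from 1.03 to 0.868.

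Hsf1 and Hsf2, the heat shock factor genes among the members, rose by 1.26-fold each. Hsf4 is given below with the other folding genes. Hsf1 was at 16.8, 18.8 and 18.0 CPM with IFN-γ and 23.6, 22.9 and 21.4 CPM with 4-OI, and Hsf2 at 30.7, 34.6 and 30.5 CPM and 39.2, 36.8 and 45.1 CPM. In both genes the groups did not overlap and the log2 change was 0.34 (edgeR adjusted p = 0.0149 for Hsf1 and 0.0296 for Hsf2). Neither passed with total-count scaling, where both stood at 0.08. Hsf1 also did not pass without IFN-γ replicate 3 or without 4-OI replicate 1 or 2 (edgeR adjusted p = 0.0521 to 0.0623). Hsf2 did not pass without IFN-γ replicate 3 or without 4-OI replicate 1 or 3 (0.0650 to 0.0936).

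**Figure D4:**
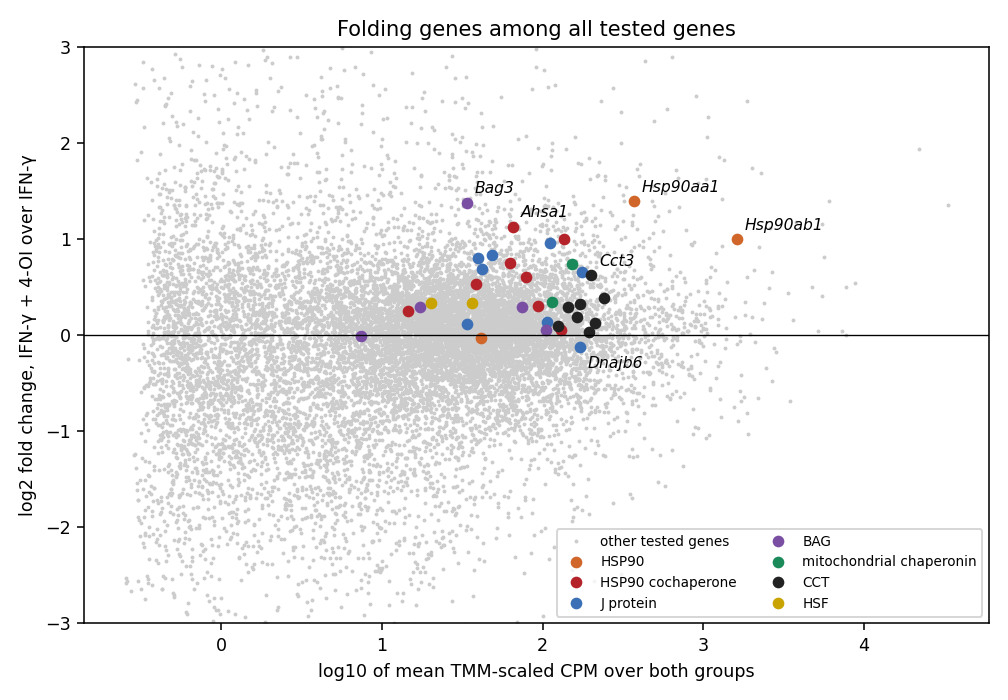
Each grey dot is a tested gene, placed by the log10 of its mean TMM-scaled CPM and its log2 change; coloured dots are the 36 chaperone genes by class, and 184 genes beyond a log2 change of 3 in either direction lie outside the plot. The coloured dots sit at medium to high abundance and 33 of 36 above the 0 line.

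Among 82 other genes of protein folding, listed with earlier results of these data known, 78 were tested; 27 were higher and 7 lower, with a median log2 change of 0.20 (15 higher and 17 lower with total-count scaling). Among all tested genes 22.7% were higher and 25.4% lower, and the counts by group here are to be set against these shares. The HSP70 and HSP110 group, which works with the J and BAG proteins, rose in 13 of 15 cases. Those with at least 2-fold rises at 10 CPM or more were Hspa1b, Hspa1a, Hsph1, Hspa8 and Hspa4l, by 5.16-fold, 4.01-fold, 3.82-fold, 3.34-fold and 2.61-fold (edgeR adjusted p = 5.28e-06, 1.51e-05, 2.38e-06, 6.23e-06 and 0.000124). Hspa1a and Hspa1b are nearly identical and may share reads. The 15 genes of this group also include Hspbp1, Grpel1 and Grpel2, which encode helpers of HSP70 and were all among the 13. Of 18 other HSP90 partners 6 were higher and 2 lower. The lower ones were Unc45a and Ruvbl2, with log2 changes of -0.58 and -0.45 (edgeR adjusted p = 0.00635 and 0.0174). St13, the gene of the HSP70 binding protein HIP, rose from 144 ± 7.47 to 273 ± 14.5 CPM (SD, n = 3; edgeR adjusted p = 6.52e-05) and was singled out after its value was seen. Hsp90b1, the HSP90 of the endoplasmic reticulum, had a log2 change of 0.11 (edgeR adjusted p = 0.314).

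Of the 30 other J protein genes 5 were higher and 4 lower, with a median of 0.01. The lower ones were Dnajc9, described below, and Dnajb14, Dnajc1 and Dnajc10, with log2 changes of -0.57, -0.40 and -0.27. Dnajc25 rose from 9.12 ± 0.468 to 19.5 ± 1.55 CPM (edgeR adjusted p = 6.73e-05). Dnajc9, whose product chaperones histones, fell from 18.9, 23.3 and 23.4 CPM to 8.68, 9.41 and 10.3 CPM (log2 change -1.21; edgeR adjusted p = 0.000119). Of 9 genes of prefoldin, which brings actin and tubulin to CCT, and of other CCT helpers, Pfdn2 and Vbp1 rose and none fell (log2 change 0.78 and 0.36; edgeR adjusted p = 0.00177 and 0.0460). Small heat shock proteins hold unfolded proteins without ATP. Of the genes listed in this class 3 were tested, Hspb6, Hspb11 and Cryab, though Hspb11 belongs to it by name only. Hspb6 alone rose (log2 change 0.44, edgeR adjusted p = 0.0197). Hspb1 and Hspb8 were too low to be tested. Their means were 0.147 and 0.0415 CPM in the IFN-γ libraries and 0.698 and 0.205 CPM in those with 4-OI. Of the other BAG and HSF genes 3 were tested, 0 were higher and Hsf4 was lower. It went from 3.73 ± 0.500 to 2.31 ± 0.260 CPM (log2 change -0.69, edgeR adjusted p = 0.0111). Hsp90b1, Unc45a, Ruvbl2, Dnajb14, Dnajc1, Dnajc10, Pfdn2, Vbp1, Hsf4 and the small heat shock proteins were likewise named after their values were seen.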

How the data were processed

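The authors deposited 1 table per library with whole-number counts per gene and TPM. HISAT2 and mm10 appear in the submitters' processing notes. How reads were counted, on which strand and with which annotation is not stated in them. The deposited TPM equal counts over the listed exon length scaled to a fixed sum (100% of values within 1e-06), and were used only for levels between genes. Of the 36 members, 2 share a start or end with GRCm38 RefSeq genes while 33 have the same span, so deposited coordinates may be on another assembly than mm10.

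Counts were tested with edgeR 4.0.16 in R 4.3.3 (filterByExpr with a minimum count of 10, TMM factors, robust quasi-likelihood fit, Benjamini-Hochberg over 14011 genes, 0.05). CPM are TMM-scaled; each SE and 95% interval follows from the F statistic. Alternatives used RLE, upper quartile or no factors, other filters, limma-voom (limma 3.58.1), DESeq2 1.42.0, a replicate block and left-out libraries; TPM ratios without each library were added after seeing the data. At these depths 3 counts are 0.103 to 0.153 CPM, for counting error only. No replicate pair agreed within sampling noise (chi-square per gene at least 4.07). The members and lists were chosen with earlier results of these data known. Values per library are given for the 2 members of each class with the largest absolute change (all members of smaller classes), for called members at 1.5-fold or more and for cytosolic HSP90; other folding genes are named when called at 2-fold or more and 10 CPM or more in a group's mean, 8 at most.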

Additional observations from a re-analysis of the deposited data

How the results depend on the processing

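Members passing as higher numbered 20, and 14 to 24 over 15 alternatives (16 to 21 without single libraries); 16 passed at an adjusted p of 0.01. No member passed as lower except Trap1, Dnajb6 and Tcp1, 3 in all, with total-count scaling. That scaling gave 15 higher and 17 lower other folding genes, against 27 and 7, and 24.0% of all calls were higher against 47.2%. It turned the log2 changes of these members, none of which passed as higher before, negative: Cdc37 -0.20, Dnaja3 -0.14, Dnajc7 -0.12, Bag6 -0.20, Tcp1 -0.22, Cct2 -0.13, Cct5 -0.066 and Cct6a -0.16. With IFN-γ replicate 1 and 4-OI replicate 3 both left out, 36 other folding genes were higher and 14 lower. Of 14086 tested genes 4601 were higher and 4695 lower in that fit. Cdc37 was then at -0.085, Tcp1 at -0.056 and Cct6a at -0.0088. These members had their lowest IFN-γ and highest 4-OI values in the dropped libraries, which lowers their changes by construction. Without single libraries the other folding genes that were lower numbered 4 to 9, and log2 changes ranged from -0.060 to 0.037 for Trap1, -0.055 to 0.14 for Cdc37, -0.072 to 0.065 for Bag2 and -0.034 to 0.095 for Tcp1; the Cct7 share ratio ranged from 0.993 to 1.03. Bag2 was at 0.0043 with RLE factors, 0.0054 without a filter and 0.0041 with DESeq2. Unless a scaling is named, the cause was not tested. Same-numbered libraries deviated with correlations of 0.26, -0.10 and 0.19, so the numbers were not taken as pairs; with the replicate block 24 members passed as higher, with Bag1, Bag5, Hspe1 and Cct7 added. With 3 libraries a group the exact test of a ratio cannot go below 0.10.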
